A study of Neurospora crassa with 6 samples.

Results

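The amino acid biosynthesis genes of the filamentous fungus Neurospora crassa were followed by RNA sequencing in mycelium of strains that lack chromatin genes. They were chosen by name alone, as the rows of the count table whose gene name begins with arg, his, leu, ilv, iv, lys, met, trp, aro, ser, thr, pro, hom, tyr, phe, am or en(am) and ends in a locus number or in nothing. This gave 52 of the 9757 genes in the table, and cpc-1, their general regulator, was added as a further gene. By name, 11 belong to arginine, 5 each to leucine, methionine, tryptophan and the shared aromatic pathway, 4 each to histidine, lysine and the branched chains, 3 each to threonine with homoserine and to proline, 2 to glutamate and 1 to serine.

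The tested strain was a cac-1 suz-12 knockout, with 3 libraries, and it was compared with a cac-1 knockout, also with 3 libraries. Both strains lack cac-1, whose product belongs to the CAF-1 histone chaperone that deposits histones behind the replication fork. They differ in suz-12, whose product belongs to the Polycomb complex that methylates histones in facultative heterochromatin, so the comparison asks how the genes stand when suz-12 is lost as well. Growth was overnight in Vogel's minimal medium, which supplies sucrose but no amino acids. No wild type entered the comparison. The labels do not say whether replicates came from separate cultures, so p-values measure the spread between these libraries, which may be technical.

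Neurospora makes its amino acids through pathways that are under common control as well as under control by their own end products. When a single amino acid runs short, genes of many pathways are raised together, a response known in this fungus as cross-pathway control. It runs through CPC1, a bZIP activator related to Gcn4 of yeast, while cpc-3 encodes a protein kinase related to yeast Gcn2 and cpc-2 a WD-repeat protein related to RACK1.

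Libraries held from 18993719 to 28327383 counts in the cac-1 suz-12 knockout and from 7989915 to 25315143 in the cac-1 knockout. No count fell on cac-1 (NCU04198) in any library. The locus taken as suz-12 from general knowledge (NCU05460, a pairing that the table does not give) had 54, 70 and 55 counts in replicates 1, 2 and 3 of the cac-1 suz-12 knockout, against 74, 207 and 197 counts in the cac-1 knockout, so that it was lower in every library but not absent. The mating-type gene matA-1 had 1193, 1387 and 1000 counts in the cac-1 suz-12 knockout and 0 counts in every cac-1 library, so the strains also differed at the mating-type locus. The first principal component held 73.4% of the variance of all genes.

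All 52 amino acid genes passed the filter on low counts, and no library held fewer than 58 counts for any of them. Of the 52, 20 were called, against 28.1% of all genes tested: 19 were lower and 1 was higher in the cac-1 suz-12 knockout at an adjusted p under 0.05 in edgeR's quasi-likelihood test, with adjustment over all 9148 genes tested. Lower calls thus made up 36.5% of the amino acid genes, against 11.9% of all genes tested, and higher calls 1.92%, against 16.1% of all genes tested. The median log2 fold change (cac-1 suz-12 minus cac-1, here and below) was -0.39 for the amino acid genes and -0.00089 for all genes tested, and 46 of the 52 had a negative value, as did 50.04% of all genes tested. Most changes were small. Called changes ran from 0.45 to 1.26 in size on the log2 scale, and only arg-3 and arg-12 changed by 2-fold or more.

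**Figure D1:**
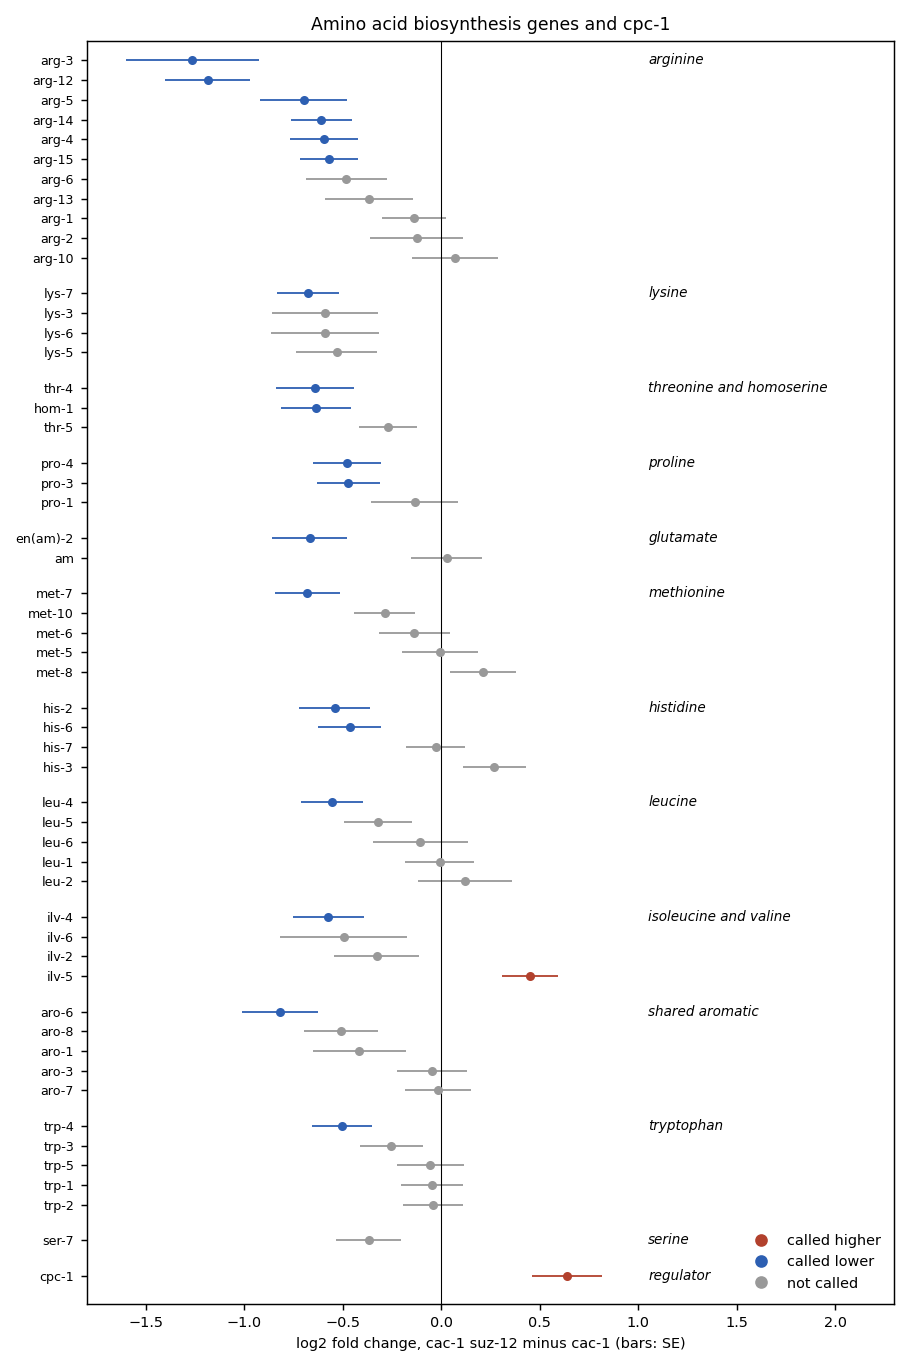
Log2 fold change (x axis, cac-1 suz-12 minus cac-1, bars are standard errors) of each of the 52 amino acid genes, grouped by amino acid, and of cpc-1. Blue points were called lower, red points higher and grey points were not called; 19 are blue, and ilv-5 and cpc-1 are red.

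For 21 of the 52 genes all cac-1 suz-12 libraries lay below all cac-1 libraries, against 19.8% of all genes tested, and for 2 they lay above them, against 22.4% of all genes tested. Summed over the 52 genes, the level was 6629, 6274 and 5376 CPM (read counts scaled to a common library size with TMM factors) in replicates 1, 2 and 3 of the cac-1 suz-12 knockout, and 6598, 8646 and 6312 CPM in those of the cac-1 knockout. These sums overlapped between the strains. As shares of all counts, with no scaling factor, the genes took 0.588%, 0.647% and 0.477% in the cac-1 suz-12 knockout and 0.705%, 0.961% and 0.655% in the cac-1 knockout, which lay just apart. Without a scaling factor the median log2 fold change was itself -0.20 for all genes tested, and -0.59 for the 52 genes. The lower shares were thus only in part common to all genes.

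The regulator cpc-1 (NCU04050, linkage group VI, 2565958 to 2566827) moved the other way from most of the enzymes. It stood at 409, 292 and 463 CPM in the cac-1 suz-12 libraries, against 275, 245 and 229 CPM in the cac-1 libraries, and was higher in all 3 than in any of the cac-1 libraries. The log2 fold change was 0.64 (edgeR adjusted p = 0.0128, SE 0.177). The call was lost without cac-1 suz-12 replicate 1 (log2 fold change 0.60, edgeR adjusted p = 0.0518), without cac-1 suz-12 replicate 3 (0.49, edgeR adjusted p = 0.0667), and on library totals (0.42, edgeR adjusted p = 0.0725), a scaling under which the median of all genes lay at -0.20. Per kb of counted length, cpc-1 was at 478 ± 107 CPM in the cac-1 suz-12 knockout and 307 ± 28.5 CPM in the cac-1 knockout (SD, n = 3 each).

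The sensor kinase gene cpc-3 rose with it, to 189, 161 and 147 CPM in the cac-1 suz-12 libraries, against 113, 117 and 105 CPM in the cac-1 libraries. Its log2 fold change was 0.57 (edgeR adjusted p = 0.0105, SE 0.152), and the libraries did not overlap. The call was lost without cac-1 suz-12 replicate 1 (0.46, edgeR adjusted p = 0.0745) and on library totals (0.37, edgeR adjusted p = 0.121). The third gene of the system, cpc-2, was not called, with a log2 fold change of -0.28 (edgeR adjusted p = 0.197, SE 0.156) and 778 ± 85.5 CPM in the cac-1 suz-12 knockout against 944 ± 71.5 CPM in the cac-1 knockout (SD, n = 3 each).

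**Figure D2:**
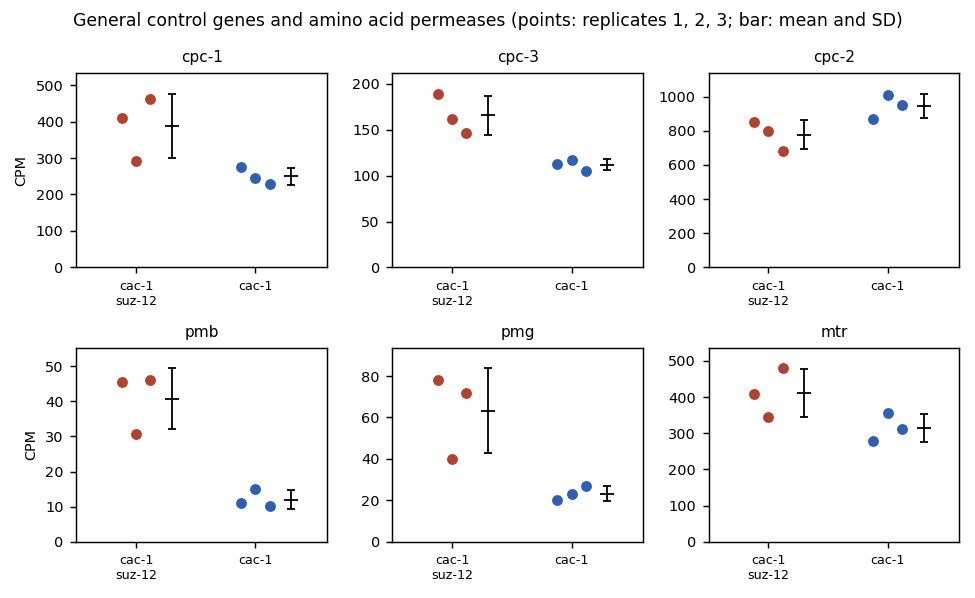
Level in CPM (y axis) of cpc-1, cpc-3, cpc-2 and the amino acid permease genes pmb, pmg and mtr in each library of the cac-1 suz-12 knockout (red) and the cac-1 knockout (blue); black bars are the mean and SD of 3 libraries. The libraries do not overlap for cpc-1, cpc-3, pmb and pmg, where the cac-1 suz-12 knockout is higher, or for cpc-2, where it is lower; for mtr they overlap.

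Arginine, the largest group, had the most called genes of any amino acid, with 6 of 11 lower and none higher. Of all genes tested, 11.9% were called lower. As a share arginine did not lead, since threonine with homoserine and proline each had 2 of 3 lower. The median log2 fold change was -0.57 for arginine, -0.63 for threonine with homoserine and -0.59 for lysine. Ornithine is made in the mitochondrion from acetylated intermediates, is turned there into citrulline with carbamoyl phosphate, and citrulline is converted into arginine in the cytosol. The largest falls lay at the citrulline step. The gene arg-12 (NCU01667, linkage group II, 2759617 to 2760949), which encodes ornithine carbamoyltransferase, stood at 81.2, 87.0 and 52.1 CPM in the cac-1 suz-12 libraries, against 159, 214 and 129 CPM in the cac-1 libraries. Every cac-1 suz-12 value was below every cac-1 value, with a log2 fold change of -1.19 (edgeR adjusted p = 8.14e-04, SE 0.216).

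The gene arg-3 (NCU02677, linkage group I, 3170838 to 3174507) encodes the large subunit of the carbamoyl phosphate synthetase that serves arginine. It had 21.4, 21.8 and 12.9 CPM in the cac-1 suz-12 libraries, against 34.1, 70.3 and 30.03 CPM in the cac-1 libraries. The groups did not overlap, but cac-1 replicate 2 stood well above the other libraries. The log2 fold change was -1.26 (edgeR adjusted p = 0.0214, SE 0.337), and without cac-1 replicate 2 it was -0.77 and still called (edgeR adjusted p = 0.0159). The small subunit of the same enzyme, arg-2 (NCU07732, linkage group IV, 2061897 to 2063314), was not called, with 62.2, 48.3 and 49.7 CPM in the cac-1 suz-12 libraries and 41.5, 85.3 and 46.8 CPM in the cac-1 libraries.

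The ratio of arg-3 to arg-2 CPM within a library was 0.344, 0.451 and 0.260 in the cac-1 suz-12 knockout, against 0.822, 0.824 and 0.642 in the cac-1 knockout. The mean log2 ratio differed by -1.14, with an exact permutation p of 0.1 (two-sided), the smallest that 3 against 3 libraries can give. The ratio was chosen after the values were seen. In cac-1 replicate 2, where both genes were highest among the cac-1 libraries, it was close to that of cac-1 replicate 1.

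The acetyl steps showed smaller falls. The acetylglutamate synthase gene arg-14 (linkage group IV, 2254298 to 2256511) stood at 30.6, 36.1 and 31.9 CPM in the cac-1 suz-12 libraries, against 47.7, 45.7 and 57.0 CPM in the cac-1 libraries (log2 fold change -0.61, edgeR adjusted p = 0.00714, SE 0.154). The ornithine acetyltransferase gene arg-4 (linkage group V, 3559291 to 3560815) had 117, 105 and 87.8 CPM in the cac-1 suz-12 libraries, against 145, 192 and 133 CPM in the cac-1 libraries (log2 fold change -0.60, edgeR adjusted p = 0.0165, SE 0.173). Neither pair of groups overlapped. For arg-5 (linkage group II, 1549316 to 1550773), the acetylornithine aminotransferase gene, 62.2, 55.2 and 40.9 CPM in the cac-1 suz-12 libraries stood against 78.8, 116 and 61.6 CPM in the cac-1 libraries, which overlapped narrowly (log2 fold change -0.70, edgeR adjusted p = 0.0285, SE 0.220). Between them in the pathway, arg-6, which encodes acetylglutamate kinase and acetylglutamyl-phosphate reductase in a joint precursor, had a log2 fold change of -0.48 and was not called (edgeR adjusted p = 0.0941).

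The arginine gene with the smallest standard error was arg-15 (NCU05622, linkage group VI, 1290394 to 1293194), with 27.3, 29.6 and 25.7 CPM in the cac-1 suz-12 libraries, against 40.2, 42.1 and 40.3 CPM in the cac-1 libraries. The log2 fold change was -0.57 (edgeR adjusted p = 0.00857, SE 0.148). The mitochondrial carrier gene arg-13 had the lowest mean CPM of all 52, with 5.05 to 7.47 CPM in the cac-1 suz-12 knockout and 7.55 to 8.20 CPM in the cac-1 knockout. It was not called (log2 fold change -0.37, edgeR adjusted p = 0.240, SE 0.223), although its libraries did not overlap.

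The cytosolic end of the pathway was not called. The argininosuccinate synthetase gene arg-1 (NCU02639, linkage group I, 3022092 to 3023845) was the most abundant arginine gene, at 253, 210.03 and 199 CPM in the cac-1 suz-12 libraries and 202, 269 and 257 CPM in the cac-1 libraries (log2 fold change -0.14, SE 0.164). The argininosuccinate lyase gene arg-10 was at 0.07 (SE 0.219), and its sign turned to -0.15 on library totals. Of the 7 genes for mitochondrial enzymes of the pathway, 5 were called lower, against 11.9% of all genes tested. Of the 2 for cytosolic enzymes, 0 were called with edgeR, DESeq2 or limma-voom, and 0 had an unadjusted edgeR p under 0.05. The carrier gene arg-13, not called, and arg-15, called lower, were left out of this division. It was made after the values were seen, and with only 2 cytosolic genes its difference was not tested.

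**Figure D3:**
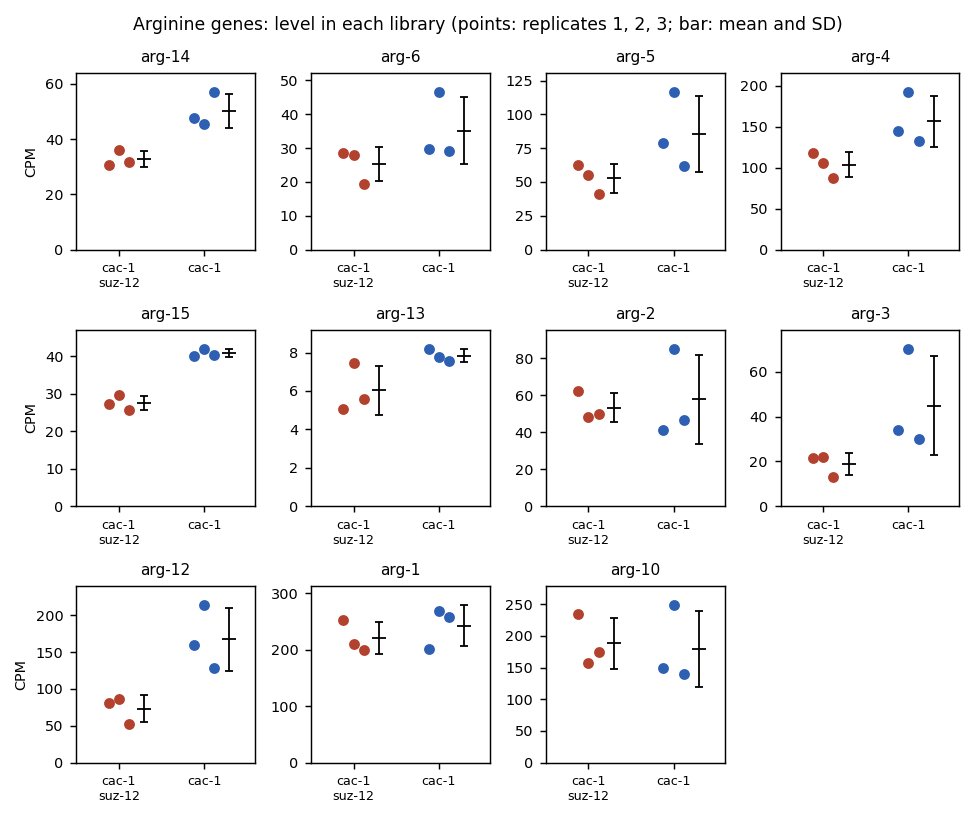
Level in CPM (y axis, from 0) of the 11 arginine genes in each library of the cac-1 suz-12 knockout (red) and the cac-1 knockout (blue), in pathway order where the step is known; black bars are the mean and SD of 3 libraries. The red points lie below all blue points for arg-14, arg-6, arg-4, arg-15, arg-13, arg-3 and arg-12, and the middle blue point, cac-1 replicate 2, is the highest for arg-6, arg-5, arg-4, arg-15, arg-2, arg-3, arg-12, arg-1 and arg-10.

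Proline shares its precursors with arginine, and 2 of its 3 genes fell. The glutamate kinase gene pro-4 had 39.4, 43.5 and 31.3 CPM in the cac-1 suz-12 libraries, against 47.9, 64.1 and 47.1 CPM in the cac-1 libraries (log2 fold change -0.48, edgeR adjusted p = 0.0471, SE 0.172). The call was lost with limma-voom (adjusted p = 0.0501) and with 10 counts required in every library (edgeR adjusted p = 0.0544). The next enzyme's gene, pro-3 (glutamyl phosphate reductase), was the most abundant of the group, at 61.1, 59.6 and 46.1 CPM in the cac-1 suz-12 libraries, against 77.9, 84.9 and 68.7 CPM in the cac-1 libraries (log2 fold change -0.47, edgeR adjusted p = 0.0345, SE 0.158). Neither gene overlapped between the strains. The last enzyme's gene, pro-1 (pyrroline carboxylate reductase), was not called at -0.14 (SE 0.220).

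The glutamate genes differed from each other. The glutamate synthase gene en(am)-2 (NCU01744, linkage group II, 2567522 to 2574052) fell to 151, 167 and 131 CPM in the cac-1 suz-12 libraries, against 204, 315 and 195 CPM in the cac-1 libraries, with no overlap (log2 fold change -0.67, edgeR adjusted p = 0.0142, SE 0.189). The gene am (NCU01195, linkage group V, 3201160 to 3202651), for the NADP-dependent glutamate dehydrogenase that assimilates ammonium, had 477, 519 and 409 CPM in the cac-1 suz-12 libraries and 361, 584 and 433 CPM in the cac-1 libraries. Its groups overlapped, and its log2 fold change of 0.03 (SE 0.181) was below 0 on library totals and with upper-quartile scaling.

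All 4 lysine genes had a log2 fold change from -0.68 to -0.53, and 1 of them was called. Lysine is made in fungi by way of aminoadipate. The called gene, lys-7 (NCU02954, linkage group I, 8600897 to 8602212), had 80.5, 78.0 and 68.3 CPM in the cac-1 suz-12 libraries, against 129, 134 and 100.3 CPM in the cac-1 libraries, with no overlap (log2 fold change -0.68, edgeR adjusted p = 0.00399, SE 0.157). The most abundant of the 4, the homocitrate synthase gene lys-5, had 311, 249.96 and 276 CPM in the cac-1 suz-12 libraries and 356, 556 and 297 CPM in the cac-1 libraries, which overlapped (log2 fold change -0.53, edgeR adjusted p = 0.0652, SE 0.205). For lys-3 and lys-6, where cac-1 replicate 2 was also highest, edgeR adjusted p-values were 0.124 and 0.134. Without cac-1 replicate 2 the log2 fold changes were -0.13 for lys-3, -0.15 for lys-6 and -0.23 for lys-5, so the values of these 3 genes rest largely on that library. With all libraries, lys-5 was called lower with DESeq2 (adjusted p = 0.0392), with upper-quartile scaling (edgeR adjusted p = 0.0355) and on library totals (edgeR adjusted p = 0.0108). The gene lys-3 was called lower on library totals (edgeR adjusted p = 0.0421) and with a replicate block (edgeR adjusted p = 0.0376). A replicate block also called lys-6 lower (edgeR adjusted p = 0.0297).

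Homoserine is the branch point of methionine and threonine, and the homoserine dehydrogenase gene hom-1 fell. It had 67.0, 67.1 and 48.3 CPM in the cac-1 suz-12 libraries, against 89.7, 115 and 78.0 CPM in the cac-1 libraries (log2 fold change -0.63, edgeR adjusted p = 0.0139, SE 0.179). The gene thr-4 fell by 0.64 on the log2 scale (edgeR adjusted p = 0.0254, SE 0.200), with 32.7, 30.7 and 26.4 CPM in the cac-1 suz-12 libraries, against 43.5, 62.4 and 33.8 CPM in the cac-1 libraries. In neither did the groups overlap. For thr-5, the most abundant of the 3, the values were 96.2, 95.0 and 107.8 CPM in the cac-1 suz-12 libraries and 121.4, 108.1 and 132 CPM in the cac-1 libraries, which lay just apart, and it was not called (log2 fold change -0.27, SE 0.148).

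Of the 5 methionine genes only met-7 was called. It encodes cystathionine gamma-synthase, which joins homocysteine synthesis to cysteine, and had 51.7, 66.1 and 45.5 CPM in the cac-1 suz-12 libraries, against 81.6, 98.2 and 81.8 CPM in the cac-1 libraries (NCU02430, linkage group VII, 2514656 to 2516687; log2 fold change -0.68, edgeR adjusted p = 0.00551, SE 0.165). The methionine synthase gene met-8 was the most abundant of the 52 in CPM, with 701, 724 and 584 CPM in the cac-1 suz-12 libraries and 487, 694 and 551 CPM in the cac-1 libraries, which overlapped. Its log2 fold change was 0.21 (edgeR adjusted p = 0.379, SE 0.169). The homoserine acetyltransferase gene met-5, the folylpolyglutamate synthetase gene met-6 and met-10 had log2 fold changes of -0.0079, -0.14 and -0.29 and were not called.

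The histidine genes split. The gene for the first enzyme, ATP phosphoribosyltransferase, is his-2, and it had 87.1, 79.9 and 64.3 CPM in the cac-1 suz-12 libraries, against 111, 138.8 and 86.8 CPM in the cac-1 libraries (log2 fold change -0.54, edgeR adjusted p = 0.0340, SE 0.181). Those groups overlapped slightly. The gene his-6 fell by 0.47 on the log2 scale (edgeR adjusted p = 0.0399, SE 0.161), with 361, 382 and 294 CPM in the cac-1 suz-12 libraries, against 473, 536 and 423 CPM in the cac-1 libraries. For his-3, whose product catalyses several steps, 473, 341 and 363 CPM in the cac-1 suz-12 libraries stood against 317, 340.3 and 318 CPM in the cac-1 libraries, which lay just apart, and it was not called (log2 fold change 0.27, edgeR adjusted p = 0.230, SE 0.161). The remaining gene, his-7, was at -0.03 (SE 0.148).

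The position of his-6 sets it apart from most of the 52. It lies on linkage group V (6401492 to 6403223), 34.4 kb from the last counted base of the linkage group (measured from the far edge of the gene, as are all distances here), and with leu-6 it is 1 of 2 amino acid genes within 200 kb of a chromosome end, 3.85% against 7.66% of all genes tested. Of the 31 tested genes within 50 kb of it, 16 were called higher and 1 lower, against 16.1% and 11.9% of all genes tested. Their median log2 fold change was 0.87 and the highest 10.999. Between his-6 and the end, 12 of 13 tested genes were called higher, and 10 of the 13 rose by 8-fold or more. The neighbours on either side, NCU07157 and NCU07155, had log2 fold changes of -0.48 (edgeR adjusted p = 0.184) and 0.52 (edgeR adjusted p = 0.0396). The 50 kb window was set after the values were seen.

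Among the branched chains, the leucine pathway opens with isopropylmalate synthase, encoded by leu-4, and that was the only leucine gene called. It had 63.0, 68.2 and 51.2 CPM in the cac-1 suz-12 libraries, against 88.0, 98.0 and 82.0 CPM in the cac-1 libraries (NCU02010, linkage group I, 1686359 to 1688463; log2 fold change -0.55, edgeR adjusted p = 0.0135, SE 0.155). The later enzymes' genes were not called. The isopropylmalate isomerase gene leu-2 was at 0.12 (SE 0.238), and the isopropylmalate dehydrogenase gene leu-1 at -0.0089 (SE 0.175), with 113, 105 and 107 CPM in the cac-1 suz-12 libraries and 83.4, 138.6 and 103 CPM in the cac-1 libraries.

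The isoleucine and valine genes held calls in both directions. The single amino acid gene called higher was ilv-5 (NCU02397, linkage group VII, 2647274 to 2649139), with 142, 138.99 and 135 CPM in the cac-1 suz-12 libraries, against 100.4, 106 and 96.9 CPM in the cac-1 libraries, with no overlap (log2 fold change 0.45, edgeR adjusted p = 0.0249, SE 0.142). Its call was lost on library totals (0.25, edgeR adjusted p = 0.272) and with upper-quartile scaling (0.38, edgeR adjusted p = 0.0512). The gene ilv-4 fell by 0.57 on the log2 scale (edgeR adjusted p = 0.0255, SE 0.181), with 126, 105 and 98.0 CPM in the cac-1 suz-12 libraries, against 159, 204 and 126 CPM in the cac-1 libraries. It is the neighbour of arg-12 on linkage group II (2761351 to 2762409) and is encoded on the opposite strand. The ketol-acid reductoisomerase gene ilv-2, the most abundant of the 4, was not called, with 176, 195 and 125 CPM in the cac-1 suz-12 libraries and 172, 283 and 168 CPM in the cac-1 libraries.

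The shared aromatic pathway begins with isoenzymes of DAHP synthase that differ in which end product inhibits them, and their genes did not have the same values. The gene aro-6, for the tyrosine-sensitive form, had 27.6, 30.00 and 23.7 CPM in the cac-1 suz-12 libraries, against 50.1, 59.8 and 33.7 CPM in the cac-1 libraries, with no overlap (NCU05548, linkage group VI, 1550658 to 1552068; log2 fold change -0.82, edgeR adjusted p = 0.00492, SE 0.194). The gene aro-8, for the tryptophan-sensitive form, was at -0.51 (edgeR adjusted p = 0.0530, SE 0.187) and lay at the threshold. It was called lower with RLE scaling, upper-quartile scaling, library totals, no filter, a replicate block or DESeq2 (edgeR or DESeq2 adjusted p from 0.0112 to 0.0499). With limma-voom, halved counts or 10 counts in every library it was not called (limma-voom or edgeR adjusted p from 0.0514 to 0.0648). Without cac-1 replicate 2 its log2 fold change was -0.27 (edgeR adjusted p = 0.288). The gene aro-7, for the phenylalanine-sensitive form, was the most abundant of the 3, with 287, 269 and 235 CPM in the cac-1 suz-12 libraries and 257, 321 and 222 CPM in the cac-1 libraries. Its log2 fold change was -0.02 (SE 0.167). Differences between these isoenzyme genes were not tested. The pentafunctional aro-1 and the chorismate synthase gene aro-3 were at -0.42 and -0.05 and were not called.

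Of the tryptophan genes, trp-4 (anthranilate phosphoribosyltransferase) was called. It had 83.8, 96.9 and 71.8 CPM in the cac-1 suz-12 libraries, against 119, 121.2 and 119 CPM in the cac-1 libraries (NCU04411, linkage group IV, 3457363 to 3458782; log2 fold change -0.51, edgeR adjusted p = 0.0201, SE 0.153). The anthranilate synthase genes trp-1 and trp-2 were at -0.05 and -0.04. The tryptophan synthase gene trp-3, the most abundant of the group, had 290.0, 227 and 206 CPM in the cac-1 suz-12 libraries and 273, 297 and 293 CPM in the cac-1 libraries, which overlapped, and it was not called (log2 fold change -0.25, SE 0.161). The serine gene ser-7 was not called either, with 341, 388 and 306 CPM in the cac-1 suz-12 libraries and 436, 521 and 379.7 CPM in the cac-1 libraries (log2 fold change -0.37, edgeR adjusted p = 0.107, SE 0.165).

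The name pattern also took in 3 genes that encode tRNA synthetases rather than biosynthetic enzymes. They are leu-6 and leu-5, for the cytosolic and the mitochondrial leucyl-tRNA synthetase, and trp-5, for tryptophanyl-tRNA synthetase. Of these 3, 0 were called with edgeR, DESeq2 or limma-voom, 0 had an unadjusted edgeR p under 0.05, and their log2 fold changes ran from -0.32 to -0.06. Of the other 49 genes 20 were called, and of all genes tested 28.1%. With only 3 synthetase genes, their difference from the other genes was not tested.

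The amino acid genes varied together between libraries of a strain. Within the cac-1 knockout, 46 of the 52 were highest in replicate 2, where 35.8% of all genes tested were highest. Within the cac-1 suz-12 knockout, 42 of the 52 were lowest in replicate 3, where 34.2% of all genes tested were lowest. The median deviation of the 52 from the strain mean on the log2 scale was 0.14, 0.09 and -0.19 in replicates 1, 2 and 3 of the cac-1 suz-12 knockout, and -0.05, 0.30 and -0.22 in those of the cac-1 knockout, while that of all genes stayed between -0.0076 and 0.0089. The regulator cpc-1 was highest in cac-1 suz-12 replicate 3 and intermediate in cac-1 replicate 2, unlike most of the 52 genes. In cac-1 replicate 3 both cpc-1, at 229 CPM, and the median of the 52 were the lowest of that strain. Whether cpc-1 and the 52 genes vary together between libraries was not tested. The median SD of log2 CPM between replicates was 0.20 for the amino acid genes and 0.20 for all genes in the cac-1 suz-12 knockout, and 0.28 and 0.22 in the cac-1 knockout.

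**Figure D4:**
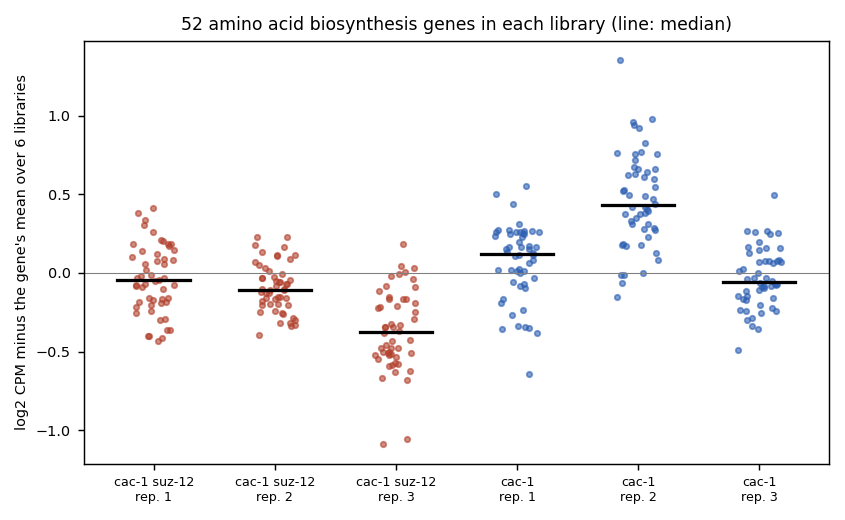
Log2 CPM of each of the 52 amino acid genes minus its own mean over the 6 libraries (y axis), by library (x axis), red for the cac-1 suz-12 knockout and blue for the cac-1 knockout; black lines are medians. The median is lowest in cac-1 suz-12 replicate 3, at -0.38, and highest in cac-1 replicate 2, at 0.43. The medians overlap between the strains, at -0.048 in cac-1 suz-12 replicate 1 and -0.058 in cac-1 replicate 3.

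Single libraries moved the number of calls. It fell to 7 lower and 1 higher without cac-1 suz-12 replicate 3, to 9 lower and 2 higher without cac-1 replicate 2, to 11 lower without cac-1 replicate 1, and to 13 lower without cac-1 suz-12 replicate 1. Without cac-1 suz-12 replicate 2, 16 were lower and 1 higher, and without cac-1 replicate 3, 24 were lower. Lower calls made up 13.5% of the amino acid genes and 7.52% of all genes without cac-1 suz-12 replicate 3. Without cac-1 replicate 2 these shares were 17.3% and 8.93%, and without cac-1 replicate 1 they were 21.2% and 8.26%. They were 25% and 7.08% without cac-1 suz-12 replicate 1, and 30.8% and 12.4% without cac-1 suz-12 replicate 2. Without cac-1 replicate 3 they were 46.2% and 12.1%. The share of all genes called lower thus also fell in several of these fits, from 11.9% with all libraries. The median of the 52 was -0.22 without cac-1 replicate 2 and between -0.32 and -0.50 without any other library.

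The genes arg-3, arg-12, arg-14, arg-15, aro-6, lys-7 and met-7 were called in each of the 15 alternative fits. Without cac-1 suz-12 replicate 3 the calls of leu-4, his-2, hom-1, arg-5, en(am)-2, ilv-4, pro-4, trp-4, arg-4, pro-3, thr-4 and his-6 were lost, with edgeR adjusted p from 0.0645 to 0.193. Without cac-1 replicate 2 those of his-2, hom-1, arg-5, en(am)-2, ilv-4, pro-4, arg-4, pro-3, thr-4 and his-6 were lost, with edgeR adjusted p from 0.0715 to 0.220. In that fit the log2 fold changes were -0.36 for his-2 and thr-4, -0.41 for arg-5 and en(am)-2, -0.38 for ilv-4 and -0.32 for pro-4. Without cac-1 replicate 1 the lost calls were his-2, arg-5, ilv-4, pro-4, trp-4, pro-3, thr-4, his-6 and ilv-5, with edgeR adjusted p from 0.0530 to 0.0964. Without cac-1 suz-12 replicate 1 they were en(am)-2, pro-4, trp-4, pro-3, thr-4, his-6 and ilv-5 (0.0517 to 0.106), and without cac-1 suz-12 replicate 2 his-2, arg-5 and ilv-4 (0.0512 to 0.0592). Without cac-1 replicate 3 only ilv-5 was lost (edgeR adjusted p = 0.0884). Calls were also gained. Without cac-1 replicate 3, arg-6, lys-3, lys-5, aro-8 and ilv-6 were called lower, and without cac-1 replicate 2, leu-2 was called higher (log2 fold change 0.53, edgeR adjusted p = 0.0463). On library totals, thr-5, arg-6, lys-3, lys-5, aro-8 and ser-7 were called lower.

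**Figure D5:**
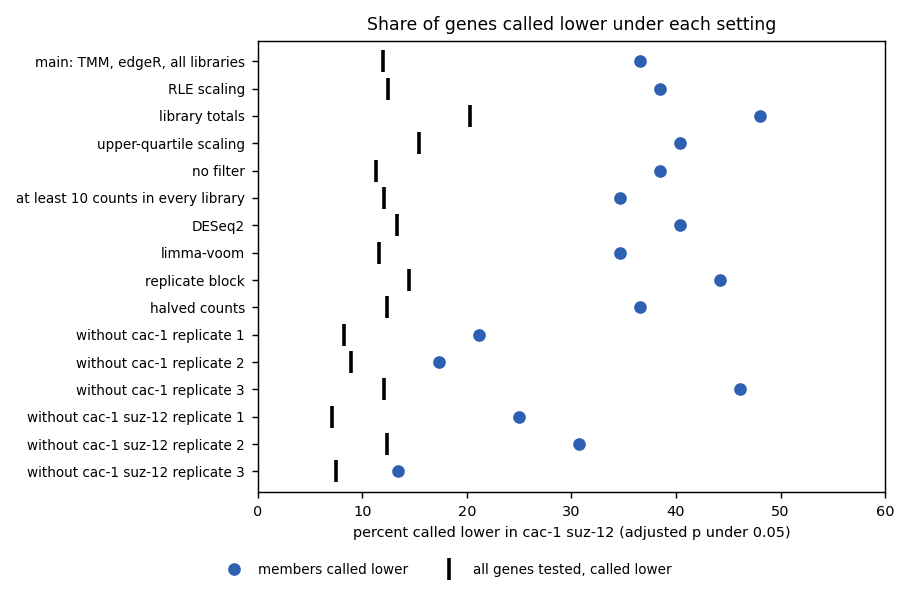
Percent of the 52 amino acid genes (blue points) and of all genes tested (black ticks) called lower in the cac-1 suz-12 knockout (x axis) under the main fit and each of 15 alternatives (y axis). The points lie to the right of the ticks in every fit, by the least without cac-1 suz-12 replicate 3, at 13.5% against 7.52%.

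As a class the amino acid genes were well expressed. By CPM per kb of counted length, averaged over the 6 libraries, their median stood at percentile 78.5 of all genes tested, 44 of 52 lay in the upper part above the median gene, and the lowest, lys-3, stood at percentile 30.7. In the cac-1 suz-12 knockout the level per kb ran from 4.82 ± 0.829 CPM for lys-3 to 343 ± 40.8 CPM for am, and in the cac-1 knockout from 7.17 ± 0.304 CPM for arg-13 to 345 ± 55.1 CPM for ser-7 (SD, n = 3 each). Next below am in the cac-1 suz-12 knockout were met-8 at 289.8 ± 32.5 CPM per kb and ser-7 at 268 ± 31.9 CPM per kb, which did not differ beyond their spread. The subunits of carbamoyl phosphate synthetase stood apart per kb, at 5.33 ± 1.43 CPM for arg-3 and 39.2 ± 5.61 CPM for arg-2 in the cac-1 suz-12 knockout, and 12.8 ± 6.32 CPM and 42.5 ± 17.6 CPM in the cac-1 knockout (SD, n = 3 each).

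A further list held genes of related metabolism outside the name pattern, for cysteine, glutamine, asparagine, ammonium and one-carbon metabolism, the other cpc genes and amino acid permeases. All 23 that the table names were tested, and 3 were called higher and 5 lower, against 16.1% and 11.9% of all genes tested. The median log2 fold change of the 23 was -0.09. Those called higher were cpc-3 and the permease genes pmb and pmg. The basic amino acid permease gene pmb (linkage group IV, 5896240 to 5897810) had 45.5, 30.7 and 46.0 CPM in the cac-1 suz-12 libraries, against 11.01, 15.001 and 10.1 CPM in the cac-1 libraries (log2 fold change 1.75, edgeR adjusted p = 6.38e-06, SE 0.204). It lies 54.6 kb from a chromosome end. The general amino acid permease gene pmg (linkage group II, 432241 to 434304) had 78.2, 39.8 and 71.6 CPM in the cac-1 suz-12 libraries, against 19.9, 22.9 and 27.0 CPM in the cac-1 libraries (log2 fold change 1.43, edgeR adjusted p = 2.29e-04, SE 0.223). For neither gene did the groups overlap, and the neutral amino acid permease gene mtr, at 0.38 (edgeR adjusted p = 0.0951, SE 0.166), was not called.

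Those called lower were cys-2, cys-3, cys-9, cys-12 and nit-2. The gene cys-3 encodes the bZIP activator of sulfur uptake genes and had 53.8, 63.8 and 58.3 CPM in the cac-1 suz-12 libraries, against 78.6, 95.7 and 74.8 CPM in the cac-1 libraries (log2 fold change -0.50, edgeR adjusted p = 0.0209, SE 0.153). The sulfate permease gene cys-14 was not called, at -0.06 (SE 0.151). The gene cys-12 had 17.1, 18.9 and 12.7 CPM in the cac-1 suz-12 libraries, against 21.6, 26.7 and 22.6 CPM in the cac-1 libraries, and cys-2 had 63.1, 58.4 and 46.3 CPM in the cac-1 suz-12 libraries, against 68.3, 113 and 66.9 CPM in the cac-1 libraries. The gene nit-2 encodes the GATA activator of nitrogen genes and had 26.5, 24.7 and 26.0 CPM in the cac-1 suz-12 libraries, against 37.8, 31.4 and 36.7 CPM in the cac-1 libraries (log2 fold change -0.45, edgeR adjusted p = 0.0352, SE 0.153). The thioredoxin reductase gene cys-9, with 13.8, 15.1 and 9.72 CPM in the cac-1 suz-12 libraries and 22.7, 26.8 and 14.9 CPM in the cac-1 libraries, overlapped narrowly (log2 fold change -0.73, edgeR adjusted p = 0.0236, SE 0.225). The glutamine synthetase genes gln-1 and gln-2 were at 0.41 and 0.30 and were not called (edgeR adjusted p = 0.0606 and 0.176).

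Few of the genes that mark other states of the mycelium were called, and their numbers were near the 16.1% higher and 11.9% lower of all genes tested. Of 6 conidiation genes in the table, con-6 was called higher and con-8 lower. The summed level of the 6 was 192, 155 and 176 CPM in the cac-1 suz-12 libraries. In the cac-1 libraries it was 274, 196 and 359.9 CPM, so the groups lay just apart. The median log2 fold change of the 6 was -0.53. None of the 6 was at 0 in any library, and con-13 was near 0, from 0.234 to 1.20 CPM over all libraries. Of 6 genes of sexual development, ccg-4 was called higher (log2 fold change 4.14) and poi-2 lower. The strains also differed at the mating-type locus, and the part of that difference in the ccg-4 call was not tested. The summed level of these 6 was 1364, 1023 and 1757 CPM in the cac-1 suz-12 libraries. In the cac-1 libraries it was 1733, 1505 and 3048 CPM, which overlapped. Their median log2 fold change was -0.37. The part of these conidiation and sexual development genes in the values of the amino acid genes was not tested. In bulk mycelium, fewer cells of a kind and less RNA per cell cannot be told apart.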

How the data were processed

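RNA from mycelium, prepared with a strand-marking kit per the labels' protocols, was analysed in 6 libraries from a deposited table of raw counts per gene, 1 column per alignment file per the file headers, so that replicates were not pooled. The submitters' processing notes name Trim Galore 0.6.10, STAR 2.7.11, SAMtools 1.21, Subread 2.0.6, featureCounts and deepTools 3.5.5. The genome build, the annotation and the strand setting of counting are not given in the sources used here. The authors' gene lengths equal the bases covered by the counted intervals in all 9757 genes, and 98.8% are multiples of 3, so they are called counted lengths. Coordinates are those of the deposited table, and linkage groups come from matching gene names to the RefSeq table of NC12, where all 53 genes matched. No counted interval of the 53 genes overlapped another gene. The table holds 36 other count columns whose names fit none of the samples, and these were left out.

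Of values from 1 to 20 counts, 80.9% were even, so a count is not taken as 1 fragment. Replicates differed by a chi-square per degree of freedom of 23.2 to 107 and were kept as separate samples. Counts were filtered with filterByExpr, which kept 9148 genes, scaled by TMM and fitted with edgeR 4.0.16 in R 4.3.3 (robust quasi-likelihood, no replicate block), with Benjamini-Hochberg adjustment over all genes tested. The SE is the size of the log2 fold change divided by the square root of F. CPM values use library totals times TMM factors. On simulated counts for 9757 genes in this comparison, 81 of 100 genes changed by 1 and 99 of 100 changed by 2 on the log2 scale were called, with 11 false calls. Changes below 1 in size, which most called amino acid genes had, were not simulated. Counts were drawn independently for each gene, so shifts that genes share within a library were not covered either.

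Values per library are given for cpc-1, every gene called, and the most abundant gene of each amino acid; genes named for another reason were chosen after their values were seen. Members and lists were chosen with earlier results of these data known. Gene descriptions were not used here, so no wider list of tRNA synthetases was formed, and sequences are not shown. Alternatives were RLE, upper-quartile and library-total scaling, no filter and 10 counts in every library, DESeq2 1.42.0, limma-voom (limma 3.58.1), a replicate block, halved counts, and leaving out each library. No correction for GC content was run.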

Additional observations from a re-analysis of the deposited data

How the results depend on the processing

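With all libraries kept, 18 of the 20 calls held in each of the 9 alternatives, and 19 to 25 amino acid genes were called. When each library was dropped in turn, the number was 8 to 24, that of lower calls from 7 to 24, and that of higher calls from 0 to 2. The median log2 fold change of the 52 genes stayed below 0 in every fit, from -0.59 on library totals to -0.37 with 10 counts in every library, and from -0.50 to -0.22 with a library left out. On library totals the median of all genes was -0.20, and the difference between the medians was -0.39, as with TMM. For cpc-1 the log2 fold change was 0.42 on library totals, no longer called, and ran from 0.49 to 0.81 with a library left out. Single genes gave 780 values over the alternatives. In 675 neither the sign nor the call differed, 46 lost a call, 22 gained a call and 37 had the other sign.

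None of the genes that reversed was called with all libraries, and leu-2 was called higher without cac-1 replicate 2. On library totals, leu-2 was at -0.084, am at -0.17 and arg-10 at -0.15, a reversal that the shift of the centre gives by construction. With upper-quartile scaling am was at -0.043. With 10 counts in every library aro-7 was at 0.0017, leu-1 at 0.011 and met-5 at 0.011, and with limma-voom leu-1 was at 0.022 and met-5 at 0.0033. With a library left out, the log2 fold change ran from -0.12 to 0.24 for am, -0.11 to 0.38 for arg-10, -0.31 to 0.27 for arg-2, -0.23 to 0.11 for aro-3, -0.15 to 0.14 for aro-7, -0.084 to 0.052 for his-7, -0.17 to 0.21 for leu-1, -0.10 to 0.53 for leu-2, -0.31 to 0.15 for leu-6, -0.16 to 0.22 for met-5, -0.29 to 0.093 for pro-1, -0.16 to 0.084 for trp-1, -0.15 to 0.048 for trp-2 and -0.20 to 0.10 for trp-5. Beyond the scaling, the cause was not tested.

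The replicate block gave 24 calls, 23 lower and 1 higher, including all 20 made without it and adding arg-6, lys-3, lys-6 and aro-8, with leu-1 at 0.022 and met-5 at 0.0079. Deviations of libraries with the same number correlated at -0.015, 0.097 and 0.17, so the numbers were not taken to pair the libraries, and not every library correlated best with its own number. Counts of amino acid genes near chromosome ends were 2 at 200 kb and 1 at 100 kb. Depth limits the test most in cac-1 replicate 1, where the rarest gene, pro-1, had 58 counts.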
